A study of Trichosurus vulpecula with 116 samples.

Results

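Skin and urinary bladder of one brushtail possum (Trichosurus vulpecula) pouch young were described here, as 2 of the 116 RNA-sequencing libraries of the series. The members were chosen by their labels: both came from Sandy, a male pouch young of 22 days postpartum (dpp), wild-born to the adult female Puku at Sandymount in southern New Zealand, with no treatment or engineered allele given in the labels. They were compared with each other and with 11 further tissues of the same animal, namely 3 of the gut (stomach, small intestine and large intestine), liver, kidney, spleen, lung, heart, muscle, brain and eye. Each tissue was 1 library from 1 piece of whole tissue, so differences between tissues have no replicate check, no test was possible, and tissue, dissection and library cannot be told apart. The labels give no body site for the skin and no layer or region for the bladder. Skin had 25153559 reads on annotated genes and bladder 32064469, and the other 11 libraries ranged from 17130171 (eye) to 31393983 (kidney), with a median of 26034403.

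Skin is a stratified epithelium resting on a dermis. Its basal cells are held to the basement membrane by hemidesmosomes, the suprabasal cells by desmosomes, and the outermost cells end as a cornified layer in which cross-linked protein and ceramide lipids form the water barrier. The bladder wall has a urothelium, whose superficial cells carry plaques of uroplakin protein, a collagen-rich lamina propria, and the detrusor, a thick coat of smooth muscle that contracts to empty the organ. A marsupial is born at an early stage and builds both tissues largely inside the pouch.

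Levels are given as CPM, the reads of a gene scaled to a common library total (counts per 1000000 reads). They were not divided by transcript length, so a level was compared only between tissues for the same gene. Where a library held 3 or fewer reads of a gene, its level was set to 3 reads (0.104 CPM in skin and 0.084 CPM in bladder) before a fold was formed, and a fold against a library with no read is a lower bound, written "at least". The range after a fold is the exact 95% interval for counting error only, since reads were not tagged with molecular identifiers and nothing here measures the error between animals.

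Skin was closer to bladder than to any other of these tissues by the share of genes at least 4-fold apart, while bladder was closer to stomach. Of the 17854 genes that reached 1 CPM in at least 1 of the 13 libraries, 1228 (6.88%) were at least 4-fold higher in skin than in bladder and 1249 (7.00%) were at least 4-fold higher in bladder than in skin, together 13.9% of genes. Muscle was the next nearest to skin at 18.2% and brain was farthest at 34.2%. Bladder was nearest to stomach, with 13.1% of genes at least 4-fold apart, and farthest from brain, with 32.8%. Across the 78 pairs of tissues the share had a median of 23.7%, and it was lowest between small and large intestine at 1.18%. Spearman's rho across the same genes was 0.864 between skin and bladder, 0.884 between bladder and lung and 0.887 between bladder and stomach, as a description, since genes are not independent and the libraries share an animal. In 524 genes skin and bladder held the first and second place of the 13 tissues.

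The size of these shares can be set against libraries of the same organ from other animals. Sandy's liver and the livers of 31 other pouch young were at least 4-fold apart in a median of 7.51% of the same genes (range 2.78 to 36.1%), Sandy's brain and 7 other pouch young brains in 31.2%, and Sandy's kidney and 8 other kidneys in 24.5%. Those animals ranged from under 2 dpp (1 liver) to 109 dpp, and their libraries held as few as 308137 reads on genes. All the brain and kidney libraries came from another kit, and only 6 of the 31 livers came from the same kit. The spread therefore includes age, depth and kit. The 4-fold share between skin and bladder was larger than the liver median and smaller than the brain and kidney medians. A share of that size therefore also occurs between libraries of the same organ that differ in age, depth and kit. By the median absolute difference on the log2 scale the order was another. It was 0.503 between skin and bladder, below the 0.699, 1.29 and 1.16 of the liver, brain and kidney libraries. The spread was not measured gene by gene, so a 4-fold difference in any 1 gene has no check here.

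More genes set skin apart than bladder. A total of 318 genes (1.78%) were at least 4-fold higher in skin than in bladder and than in each of the other 11 tissues, against 49 (0.274%) for bladder and 47 (0.263%) that stood at least 4-fold above all other tissues in both. Skin was the highest of the 13 tissues for 1357 genes (7.60%) and bladder for 1154 (6.46%). Of the 318 skin genes, 160 have no symbol in the annotation and 131 had 3 or fewer reads in every one of the other 11 libraries. Only 3 of the 49 bladder genes were at that level in all of the other 11 libraries, and stomach was the next highest tissue for 16 of them.

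**Figure D1:**
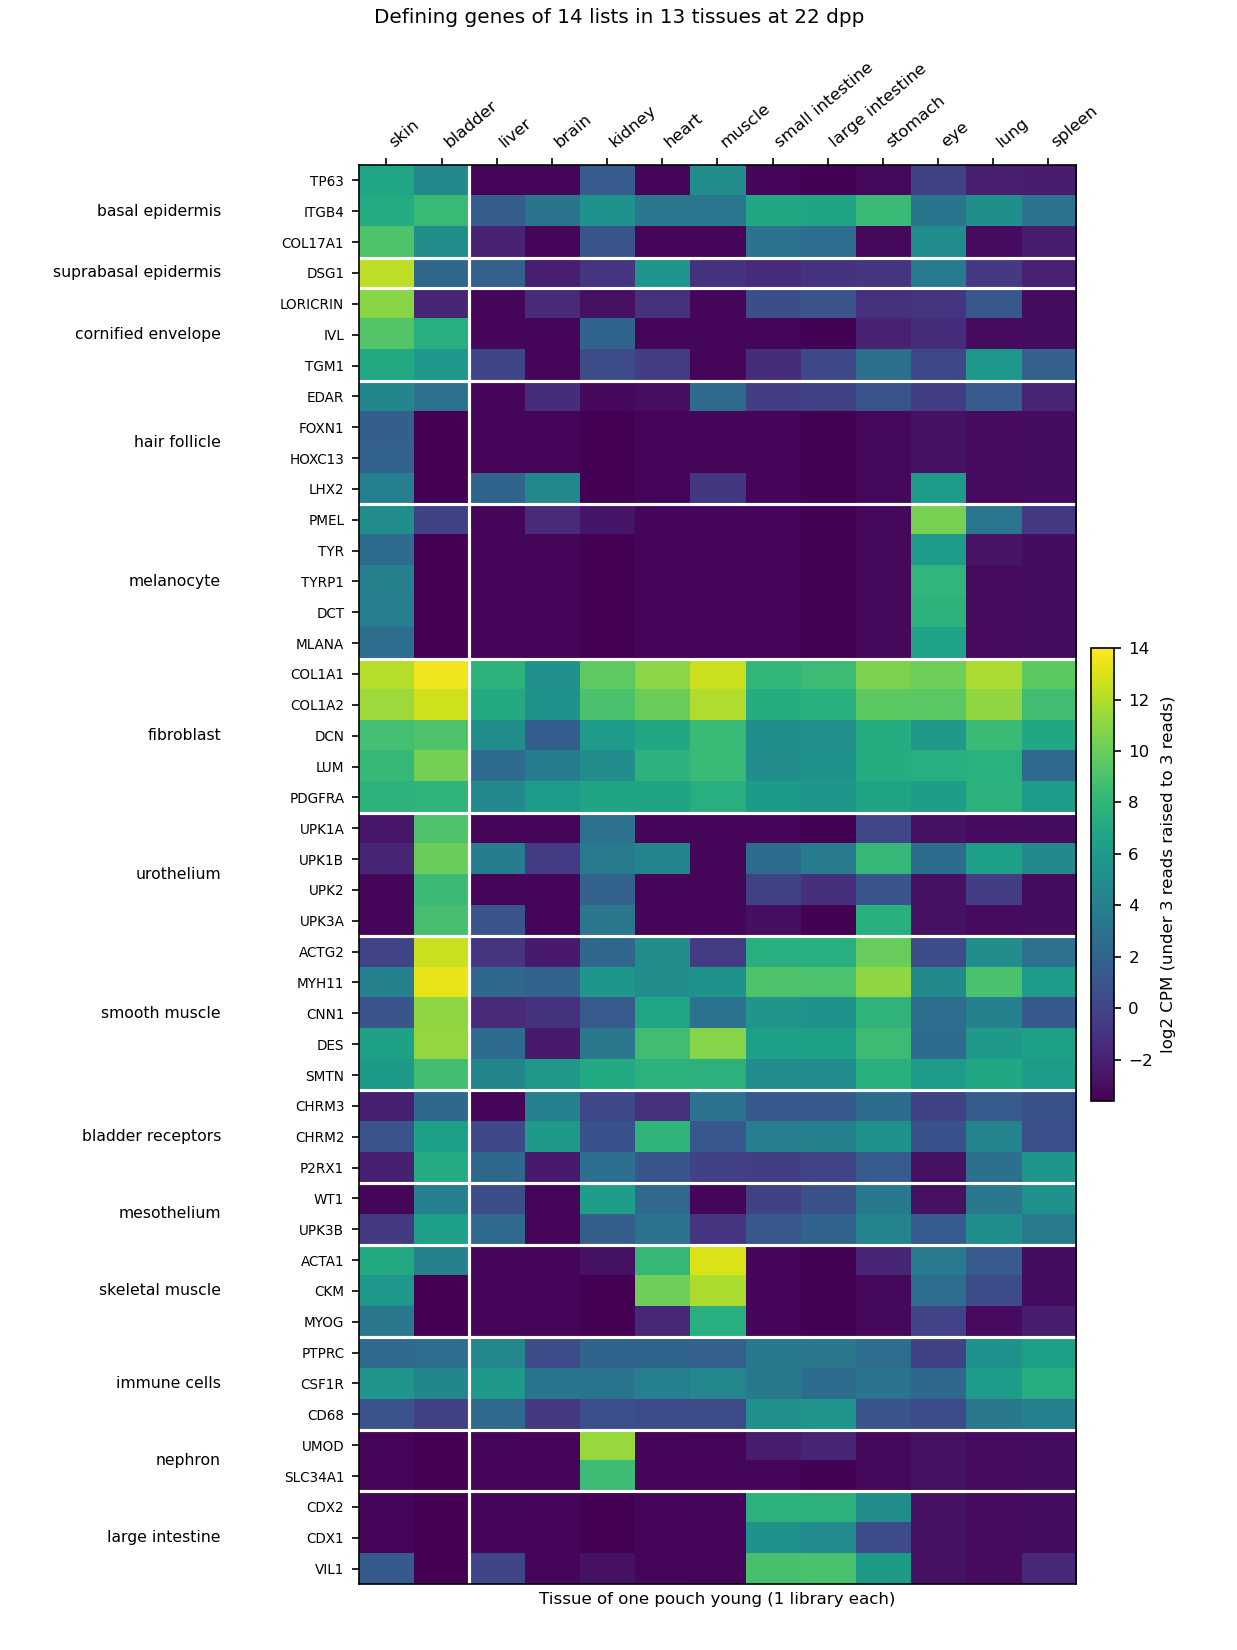
Levels of defining genes of 14 lists (rows, grouped by list) in the 13 tissues of Sandy (columns, 1 library each), as log2 CPM with values under 3 reads raised to 3 reads of that library. Skin carries the epidermal, hair follicle and melanocyte genes, bladder the uroplakins and smooth muscle genes, both carry the fibroblast genes, and the nephron genes are at the lower limit in both.

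The labelled identity of both libraries was borne out by their defining genes, shown in the map of defining genes over 13 tissues. Skin had 1856 CPM of LORICRIN, the main protein of the cornified envelope, where the other 12 libraries reached at most 2.27 CPM in lung. Bladder had 335 CPM of UPK2, a uroplakin, where skin had no read and the highest other tissue was kidney at 3.78 CPM. The nephron genes UMOD and SLC34A1 had no read in bladder or skin, and the intestinal genes CDX2 and CDX1 had none in bladder. In bulk tissue, fewer cells of a type and less RNA per cell cannot be told apart, here or in the results that follow.

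Genes of the cornified envelope and skin barrier were mostly highest in skin. Of the 23 members found in the table (35 were listed), skin was the highest tissue for 20, beside 7.60% of all genes. At least 4-fold higher in skin than in bladder were 15, beside 6.88% of all genes. The ceramide-pathway gene DEGS2 was the 1 member at least 4-fold higher in bladder (21.5 against 4.13 CPM), beside 7.00% of all genes. The median difference of the list was 3.85 on the log2 scale, against -0.06 over all genes tested. LORICRIN had 11 reads in bladder and was 6023-fold (3366 to 12067) higher in skin. CDSN, corneodesmosin, which holds cornified cells together, had 357 CPM in skin and no read in bladder, and 0, 0 and 0.14 CPM as the lowest, median and highest of the other 11. ASPRV1, a protease of the granular layer, had 696 CPM in skin and no read in bladder, so it was at least 8285-fold higher in skin. ABCA12, which loads lipid into lamellar granules, stood at 225 CPM in skin, 0 in bladder and 4.23 CPM in eye at most elsewhere. SDR9C7 and TGM5 showed the same pattern at lower levels (38.3 and 27.8 CPM in skin and no bladder read), as did CNFN with 212 CPM in skin and 3 reads in bladder. CASP14, a protease of the last step of cornification, was low even in skin (1.21 CPM, 35 reads) and had no read in the other 12 tissues.

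Another set of barrier genes was shared by skin and bladder. IVL, involucrin, a precursor of the envelope, had 612 CPM in skin and 172 CPM in bladder, and the other 11 tissues ran from 0 over a median of 0 to 4.15 CPM in kidney. The skin level was 3.55-fold (3.45 to 3.66) the bladder level, a smaller gap than that from bladder to the third tissue. EVPL, envoplakin, which lines the inner face of the envelope, was at 864 and 654 CPM, with at most 117 CPM in stomach. SPINK5, an inhibitor of skin kallikreins, reached 2675 CPM in skin and 217 CPM in bladder against 24.4 CPM in kidney. CERS3, the ceramide synthase of the skin barrier, stood at 292 and 141 CPM, and SCEL, sciellin, at 214 and 145 CPM, the latter with 125 CPM in lung. The transglutaminase TGM1, which cross-links the envelope, followed at 138 and 54.5 CPM, but here lung was level with bladder at 54.6 CPM. Its relative TGM3 did not share the pattern, with 130.4 CPM in skin and 0.364 CPM (13 reads) in bladder. KLK5, a kallikrein that SPINK5 restrains, was likewise at 64.5 CPM in skin and 0.252 CPM in bladder. The bladder library held IVL, EVPL, SPINK5 and CERS3 together, with LORICRIN at 11 reads and CDSN and ASPRV1 at none.

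The same split ran through the suprabasal genes. Skin was highest for 12 of the 13 members in the table, beside 7.60% of all genes. Of the 13, 6 were at least 4-fold above bladder, beside 6.88% of all genes, and the median difference was 1.81. DSG1, a desmosomal cadherin of upper epidermal layers, had 4894 CPM in skin and 4.87 CPM in bladder, a 1004-fold (865 to 1172) difference, and 0.232, 0.505 and 50.4 CPM as the lowest, median and highest of the other 11, with heart the highest. DSC1, its partner cadherin, was at 1089 CPM in skin and 6 reads in bladder. PKP1, plakophilin of the desmosomal plaque, was 500.0-fold (382 to 668) higher in skin. Against these, SFN, a 14-3-3 protein of keratinocytes, was at 291 CPM in skin and 151 CPM in bladder, while the next tissue, stomach, had 14.1 CPM. LYPD3, a surface protein of squamous epithelia, had 246 and 70.3 CPM against 1.99 CPM in kidney. The grainyhead factors, which drive epithelial barrier genes, were shared too: GRHL1 stood at 132 and 38.8 CPM and GRHL3 at 36.8 and 46.2 CPM, and no other tissue passed 3.20 CPM for either.

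Basal epidermal genes were less particular to skin. Of 15 members in the table, skin was highest for 8 and bladder for 1, beside 7.60% and 6.46% of all genes. At least 4-fold higher in skin were 3, beside 6.88% of all genes, and the median difference of the list was 0.86. COL17A1, the hemidesmosomal collagen, had 583 CPM in skin, 33.9 CPM in bladder and 31.6 CPM in eye at most elsewhere, and was 17.2-fold (16.2 to 18.3) higher in skin than in bladder. DSG3, the desmosomal cadherin of basal cells, reached 353 CPM in skin and 8.15 CPM in bladder, and the other 11 tissues stayed at or under 0.758 CPM. TP63, the transcription factor of stratified epithelia and of basal urothelium, was at 109.6 CPM in skin and 26.2 CPM in bladder, with muscle between them at 33.2 CPM. ITGB4, the hemidesmosomal integrin, went the other way, with 304 CPM in bladder, 305 CPM in stomach and 149 CPM in skin. Symbols of KRT5, KRT14, KRT15, KRT1, KRT10 and KRT13 were not found in the table, so these keratins are not reported by name.

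**Figure D2:**
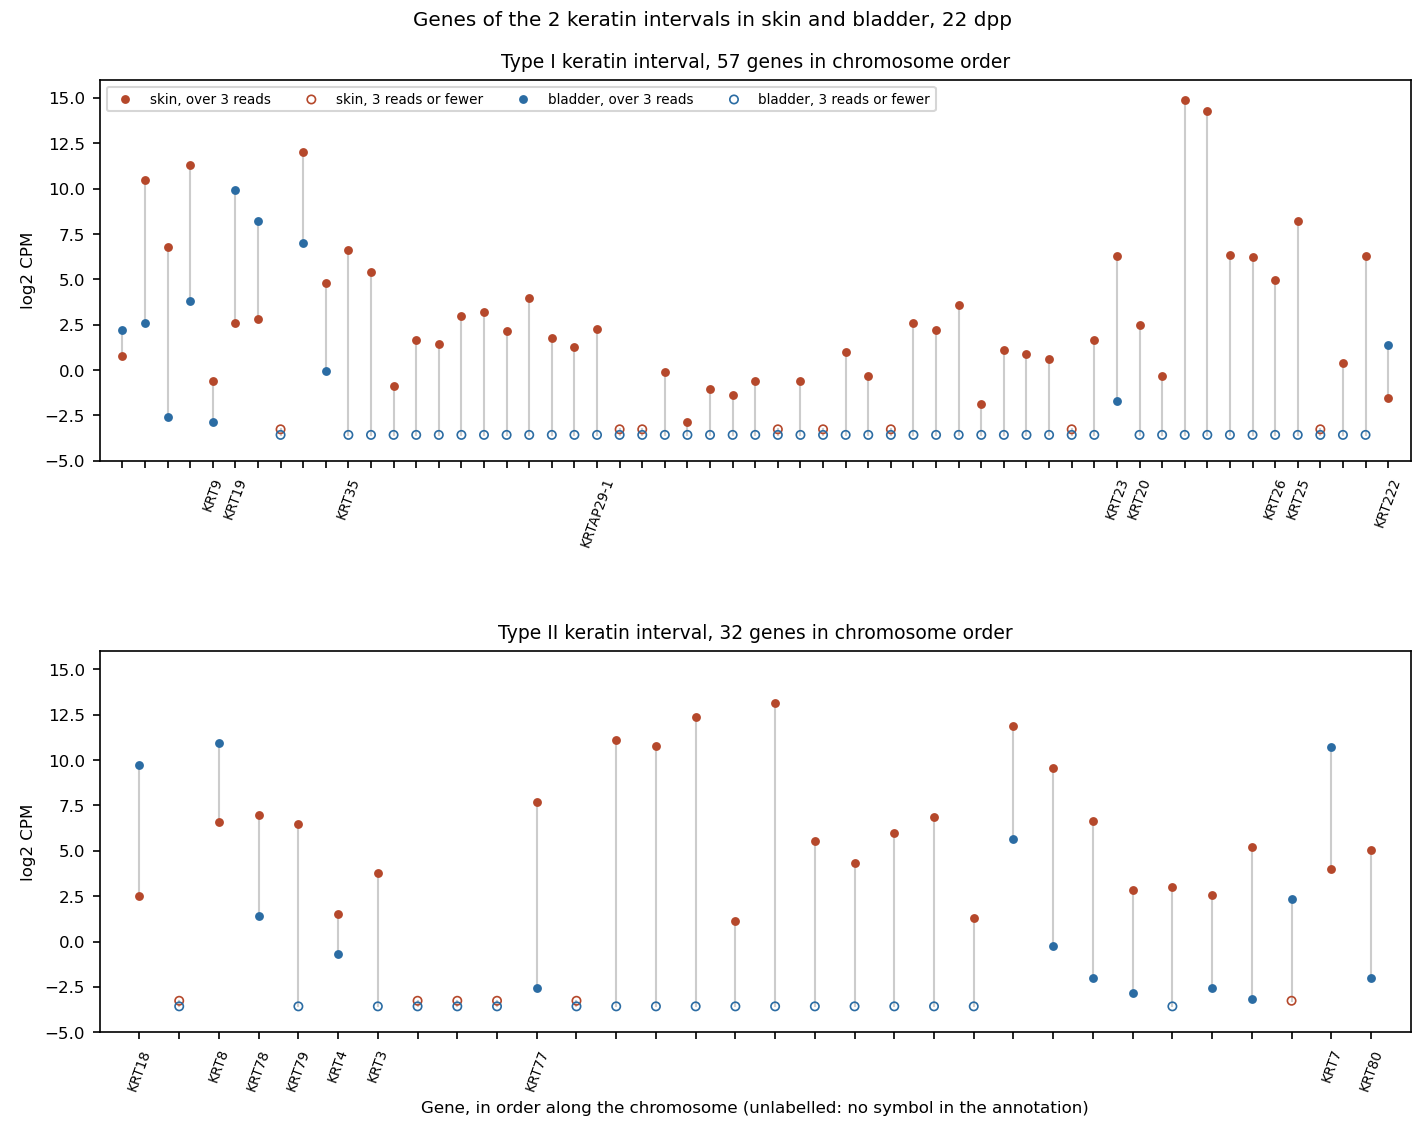
Levels (log2 CPM) of each gene of the type I keratin interval on chromosome 4 and the type II keratin interval on chromosome 5, in chromosome order, in skin (red) and bladder (blue), 1 library each. Open circles mark 3 reads or fewer. In the type I interval 49 of 57 genes are over 3 reads in skin and 11 in bladder, in the type II interval 26 of 32 in skin and 14 in bladder, and KRT19, KRT18, KRT8 and KRT7 stand higher in bladder.

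Keratins are the intermediate filaments of epithelia, and their type I and type II genes lie in clusters. On the assembly mTriVul1.pri, the genes between EIF1 and SMARCE1 (chr4:182958219-184418753) and between EIF4B and ATG101 (chr5:271838755-273093366) include the keratins named by the annotation, together with many genes known only by a locus number. These intervals were chosen after the values were seen. The first held 57 genes, 9 of them with a symbol, and took 6.81% of all skin reads on genes, 0.157% of bladder reads and at most 0.123% in the other tissues (stomach). The second held 32 genes, 9 with a symbol, and took 2.75% of skin reads, 0.508% of bladder reads and at most 0.341% elsewhere, again in stomach. In the first interval 49 genes had more than 3 reads in skin and 11 in bladder. A total of 32 were at least 4-fold higher in skin than in all other tissues, beside 1.78% of all genes. At least 4-fold higher in bladder than in skin were 3, beside 7.00% of all genes.

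Of the 10 genes with most reads in skin, 4 lay in these intervals, among them the first and second, and the others were COX1, ATP8, CYTB and ND4L of mitochondria, the translation factor EEF1A1 and DSG1. LOC118846615 (chr4:184148820-184154724) had 30679.5 CPM, 3.52% of skin reads on genes, and LOC118846552 (chr4:184187243-184194509) had 19562 CPM, 2.24% of them. Both lie between KRT20 and KRT26, both had no read in bladder, and neither passed 0.154 CPM in any of the other 11 tissues. On chromosome 5, between KRT77 and KRT7, LOC118850471 (chr5:272357667-272368725) had 9253 CPM and LOC118850358 (chr5:272286573-272293911) 5306 CPM in skin, again with no bladder read. These 4 genes are annotated as protein coding and are named here by position only. Some neighbours were shared with bladder: LOC118846355 (chromosome 4) had 4119 CPM in skin, 127 CPM in bladder and 18.3 CPM in eye at most elsewhere, and LOC118850274 (chromosome 5) 3735 CPM in skin, 51.2 CPM in bladder and 40.1 CPM in eye. The simple-epithelial keratins ran the opposite way. KRT7 had 1702 CPM in bladder and 15.7 CPM in skin, KRT18 859 and 5.79 CPM, KRT19 964 and 6.0 CPM, and KRT8 1938 and 95.3 CPM, with bladder the highest of the 13 tissues for all 4, closely followed by stomach for KRT7 (1637 CPM) and KRT19 (958 CPM).

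Further clusters of epidermal genes were looked at by position, also after the values were seen. The desmosomal cadherins DSC1, DSG1, DSG4, DSG3 and DSG2 lie together on chromosome 1, and 4 of the 5 were highest in skin. DSG2, the cadherin of simple epithelia, was the exception, with 26.4 CPM in skin, 175 CPM in bladder and 489.9 CPM in stomach. On chromosome 4, the interval from SNAPIN to DDX52 holds LORICRIN, IVL and S100 genes among 29 genes. Of these, 24 had more than 3 reads in skin and 17 in bladder. Skin was highest for 19, beside 7.60% of all genes. S100A7, psoriasin, an antimicrobial S100 protein of skin, had 325 CPM in skin and 3.03 CPM in bladder. S100A8, a calprotectin subunit made by myeloid cells and by keratinocytes, had 188 CPM in skin, 0.7 CPM in bladder and at most 0.292 CPM in eye, while spleen had no read. PRR9 and C4H1orf68 had 32.1 and 112 CPM in skin and no read in any of the other 12 tissues.

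Hair follicle genes were present in skin. Of 27 members in the table (39 listed), 19 were at least 4-fold higher in skin than in bladder, beside 6.88% of all genes. None was at least 4-fold higher in bladder, beside 7.00% of all genes. Skin was the highest tissue for 15 and bladder for 3, beside 7.60% and 6.46% of all genes. The median difference was 3.95, or 2.09 with 1 CPM added to every value. TCHH, trichohyalin of the inner root sheath, had 317 CPM in skin, 1 read in bladder and no read in the other 11 tissues. KRT25, an inner root sheath keratin, had 303 CPM in skin and no read in any other tissue, KRT79 87.7 CPM and likewise none. KRT35, a keratin of the hair shaft, stood at 97.8 CPM with 2 reads in bladder. The transcription factors of the follicle were lower: HOXC13 had 3.88 CPM (112 reads) and FOXN1 3.26 CPM (94 reads) in skin, and both had no read in bladder. LEF1, the nuclear effector of WNT signals, was at 62.1 CPM in skin and 4.01 CPM in bladder, with eye at 41.2 CPM. EDAR, the ectodysplasin receptor of the placode, was highest in skin at 22.6 CPM, but bladder followed at 8.24 CPM, 2.75-fold (2.39 to 3.16) lower, ahead of muscle at 5.65 CPM. Among placode signals, WNT10B had 5.83 CPM in skin and 0.252 CPM in bladder, WNT6 33.2 and 13.5 CPM, and WNT10A 10.3 and 15.9 CPM, the last being higher in bladder.

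**Figure D3:**
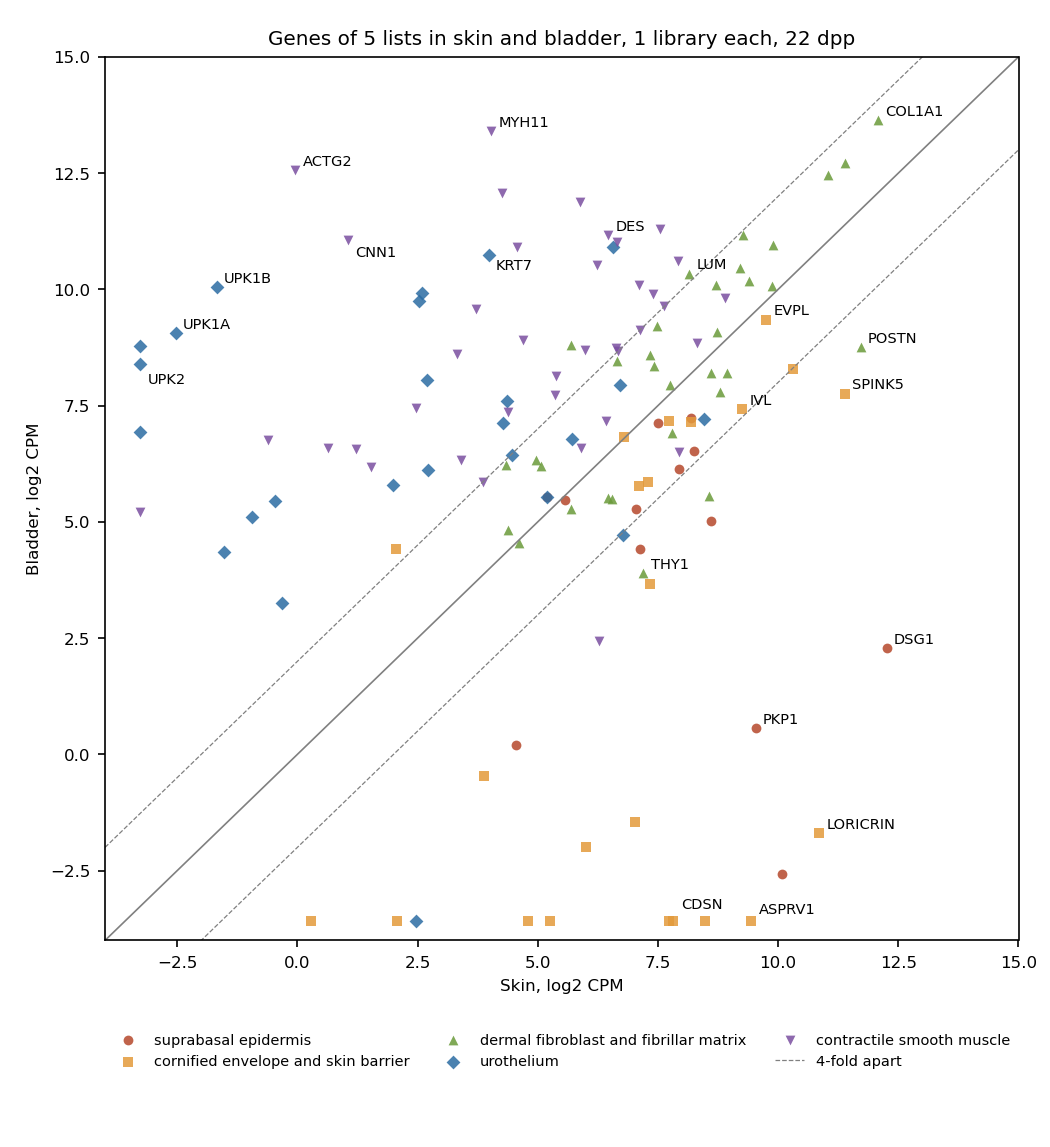
Level in bladder against level in skin (both log2 CPM, under 3 reads raised to 3 reads) for the members of 5 gene lists, 1 library each. The solid line marks equal levels and the dashed lines 4-fold differences. Smooth muscle and urothelium genes lie mostly above the upper dashed line, fibrillar matrix genes mostly between the lines, and cornified envelope genes are split between the diagonal and the lower edge.

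Most urothelial genes were highest in bladder. Of 25 members in the table (30 listed), bladder was highest for 16, beside 6.46% of all genes. At least 4-fold higher in bladder than in skin were 18, beside 7.00% of all genes. At least 4-fold higher in skin were 2 (TP63 and KRT20), beside 6.88% of all genes, and the median difference was -4.35. The 4 uroplakins of the list, which assemble the apical plaques, were all highest in bladder. UPK1A had 536 CPM in bladder, 5 reads in skin and 7.91 CPM in kidney, UPK2 335 CPM and no read in skin, and UPK3A 439 CPM and no read in skin. UPK1B stood at 1067 CPM in bladder and 9 reads in skin. Stomach carried part of this signal, with 279 CPM of UPK1B and 189 CPM of UPK3A, but only 1.12 CPM of UPK1A and 2.02 CPM of UPK2. SNX31, a sorting nexin of urothelium, had 122 CPM in bladder, 2 reads in skin and 14.6 CPM in stomach.

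Transcription factors of urothelium followed this order in part. PPARG, a nuclear receptor of urothelial differentiation and of fat, was at 194 CPM in bladder, 20.5 CPM in skin and 77.6 CPM in stomach, and was 9.43-fold (8.67 to 10.3) higher in bladder than in skin. GATA3 was at 247 CPM in bladder and 105 CPM in skin, the 2 highest tissues, with kidney at 94.9 CPM. TBX3, a T-box factor, had 265 CPM in bladder and 6.49 CPM in skin, 40.8-fold (35.3 to 47.4) apart, and large intestine had 128 CPM. FOXA1 and ELF3 did not single out bladder: FOXA1 was at 20.5 CPM there and 36.5 CPM in stomach, and ELF3 at 139.8 CPM in bladder and 140.4 CPM in stomach. KRT20, a keratin of mature umbrella cells in other mammals and of gut, had no read in bladder and 5.51 CPM in skin, with 165 CPM in small intestine. SHH, the signal that urothelium sends to the underlying mesenchyme, was at 69.0 CPM in bladder and 6.62 CPM in skin, 10.4-fold (8.99 to 12.1) apart, ahead of stomach at 59.9 CPM.

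Most contractile smooth muscle genes were higher in bladder than in skin. In the list of contractile smooth muscle genes 38 members were in the table. Bladder was the highest of 13 tissues for 24, beside 6.46% of all genes. A total of 30 were at least 4-fold higher in bladder than in skin, beside 7.00% of all genes. At least 4-fold higher in skin was 1, beside 6.88% of all genes, and the median difference was -3.37. The summed level of the list was 48368 CPM in bladder, 21850.0 CPM in muscle, 17205 CPM in heart, 11228 CPM in stomach and 3174 CPM in skin. MYH11, the smooth muscle myosin heavy chain, had 10881 CPM in bladder, 16.4 CPM in skin and 3.85, 50.4 and 2114 CPM as the lowest, median and highest of the other 11, and alone took 1.21% of bladder reads on genes. ACTG2, the visceral smooth muscle actin, had 6045 CPM in bladder, 0.971 CPM (28 reads) in skin and 949 CPM in stomach. CNN1, calponin, had 2139 CPM in bladder, 2.08 CPM in skin and 236 CPM in stomach. ACTA2 and TAGLN, which vessels and activated fibroblasts also use, were at 4299 and 3768 CPM in bladder and 19.0 and 58.6 CPM in skin. DES, desmin, shared with striated muscle, was at 2309 CPM in bladder, 1784 CPM in muscle and 88.7 CPM in skin.

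Further members of the smooth muscle list code for regulators and channels. MYOCD, myocardin, the coactivator of the smooth muscle programme, had 108 CPM in bladder and 0.659 CPM in skin, with 51.3 CPM in stomach next, whereas its partner SRF was at 96.1 and 60.0 CPM. KCNMB1, the beta subunit of the large calcium-activated potassium channel, had 37.3 CPM in bladder and no read in skin, but heart was higher at 41.5 CPM. The member at least 4-fold higher in skin was CASQ2, a calcium-binding protein also of cardiac muscle, with 77.4 CPM in skin, 5.44 CPM in bladder and 1899 CPM in muscle. ACTC1, the cardiac actin, was also on the skin side (247 against 91.2 CPM), with 4863 CPM in heart.

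Receptors through which nerves and hormones act on the detrusor could be ranked across tissues. They were part of a list of bladder receptors and pacemaker-like cells with 21 members. Of the 21, 12 were at least 4-fold higher in bladder than in skin, beside 7.00% of all genes. At least 4-fold higher in skin was 1, beside 6.88% of all genes. Bladder was highest for 7, beside 6.46% of all genes, and the median difference was -2.82. P2RX1, the ATP-gated channel of detrusor, had 149 CPM in bladder, 7 reads in skin and 53.6 CPM in spleen. The muscarinic receptors differed, CHRM2 being at 79.1 CPM in bladder, second to heart at 244 CPM, and CHRM3 at 4.87 CPM, rank 4 of 13, although CHRM3 is the form through which acetylcholine mainly contracts the bladder in other mammals. ADRB3, the adrenergic receptor that relaxes it, was at 21.9 CPM in bladder, level with lung at 21.4 CPM. TACR2, a tachykinin receptor, had 35.2 CPM in bladder and no read in skin, with 4.46 CPM in large intestine, and OXTR, the oxytocin receptor, 26.9 CPM in bladder, 1.53 CPM in skin and 5.39 CPM in liver. P2RX3, the ATP receptor of sensory fibres, was the member at least 4-fold higher in skin, with 9.92 CPM there and 2 reads in bladder.

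**Figure D4:**
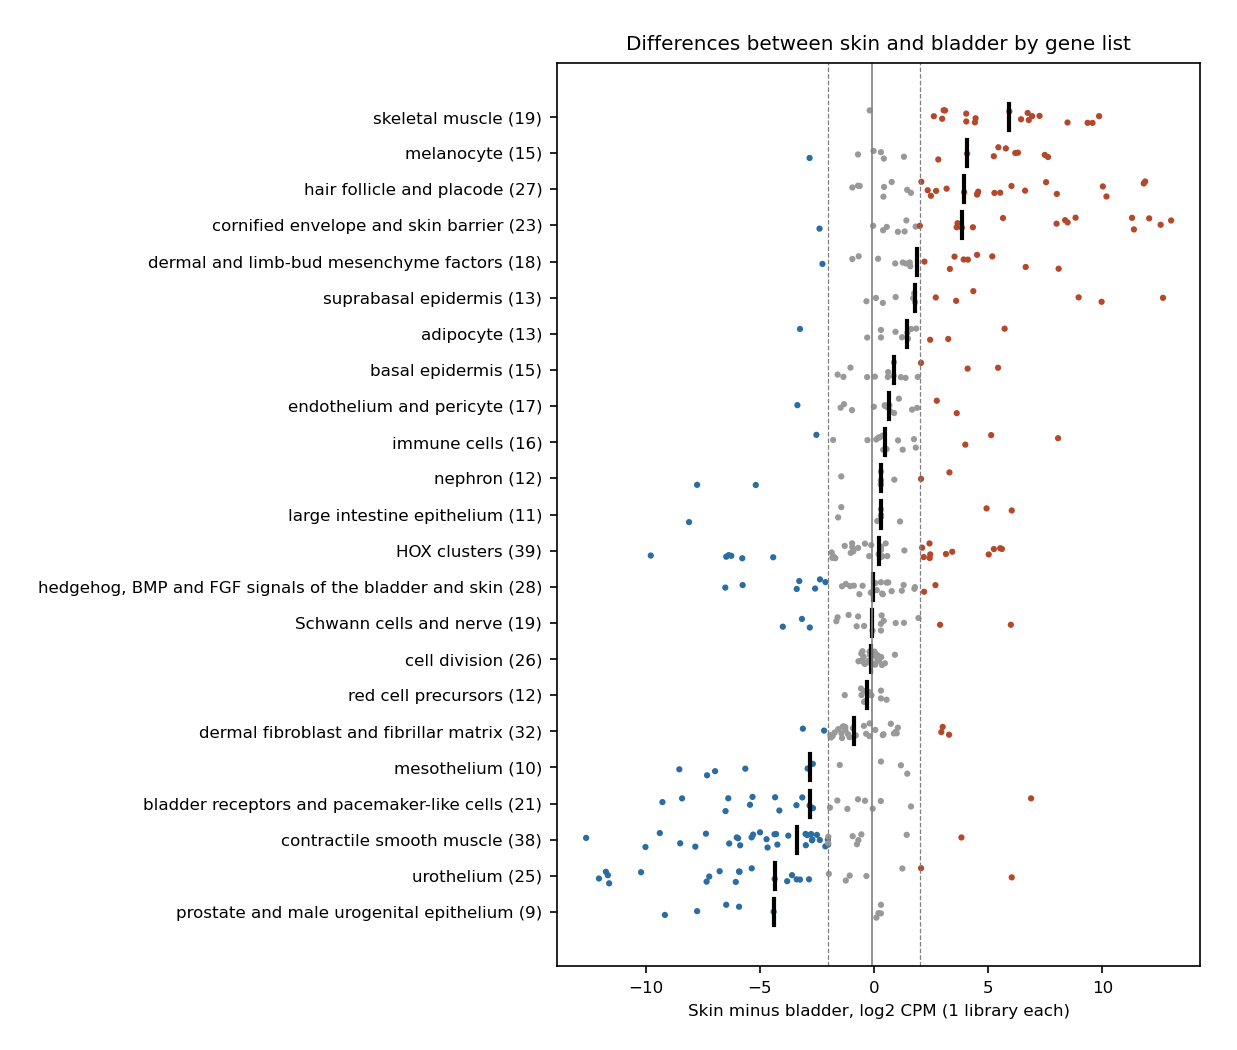
Skin minus bladder difference (log2 CPM, 1 library each) for every member of 23 gene lists found in the table, with the number of members in brackets. Black bars are list medians, the grey line is the median of all genes tested and dashed lines mark 4-fold. Urothelium and smooth muscle members lie to the left, cornified, hair follicle, melanocyte and skeletal muscle members to the right, and cell division members close to 0.

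Stromal genes were measured in both tissues, with a summed level higher in bladder. Of 32 fibroblast and fibrillar matrix genes in the table, bladder was the highest of 13 tissues for 13 and skin for 3. These shares were 6.46% and 7.60% over all genes. At least 4-fold higher in skin were 3 and in bladder 2, beside 6.88% and 7.00% of all genes. The other 27 were less than 4-fold apart, a share close to the 15377 of 17854 over all genes tested. The median difference was -0.86. The summed level was 40172 CPM in bladder, 26838 CPM in lung, 24098 CPM in muscle and 20683 CPM in skin. COL1A1, the main fibrillar collagen chain, had 12724 CPM in bladder, 6082 CPM in muscle, 4305 CPM in skin and 3513 CPM in lung. COL6A1, of the microfibrillar collagen, was 3.76-fold (3.70 to 3.82) higher in bladder and COL14A1 2.38-fold (2.34 to 2.43). LUM, lumican, a collagen-binding proteoglycan, had 1296 CPM in bladder and 285 CPM in skin, and was the member that stood at least 4-fold above all 12 other tissues in bladder. FBLN1, fibulin, was 8.64-fold (8.20 to 9.12) higher in bladder. LOC118838709, an unnamed protein-coding gene between GULP1 and COL5A2 (chr2:248174798-248240791), was among the 10 genes with most reads in bladder, at 9225 CPM there, 4078 CPM in skin and 5437 CPM in muscle.

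Some matrix genes favoured skin. POSTN, periostin, was highest of the 13 tissues in skin at 3361 CPM, ahead of muscle at 2435 CPM, and bladder had 435 CPM, 7.73-fold (7.60 to 7.87) lower. DPT, dermatopontin, was at 380.2 CPM in skin and 47.1 CPM in bladder, with lung at 439.7 CPM. THY1, a fibroblast surface protein also found on neurons, was at 147 CPM in skin and 15.0 CPM in bladder, brain having 461 CPM. The elastic-fibre genes ELN and FBN1 were less than 4-fold apart, ELN at 179 CPM in skin and 591 CPM in bladder, and FBN1 at 444 and 222 CPM.

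Several mesenchymal factors were higher in skin. The list of dermis and limb-bud mesenchyme held 18 transcription factors and markers. Of these, 9 were at least 4-fold higher in skin than in bladder, beside 6.88% of all genes. At least 4-fold higher in bladder was 1, DPP4, beside 7.00% of all genes. Skin was the highest of 13 tissues for 3 and bladder for 2, beside 7.60% and 6.46% of all genes. The median difference was 1.90. TWIST1 was at 19.4 CPM in skin, 1.93 CPM in bladder and 4.76 CPM in eye. PRRX1 stood at 34.7 CPM in skin and 7.48 CPM in bladder, with muscle at 39.4 CPM. TBX15 had 22.9 CPM in skin, no read in bladder and 69.4 CPM in muscle. EN1, a homeobox factor of dermal lineages, had 1.46 CPM (42 reads) in skin and none in bladder. Brain and muscle were higher than skin for EN1, with log2 CPM of 4.92 and 3.28 against 0.54.

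**Figure D5:**
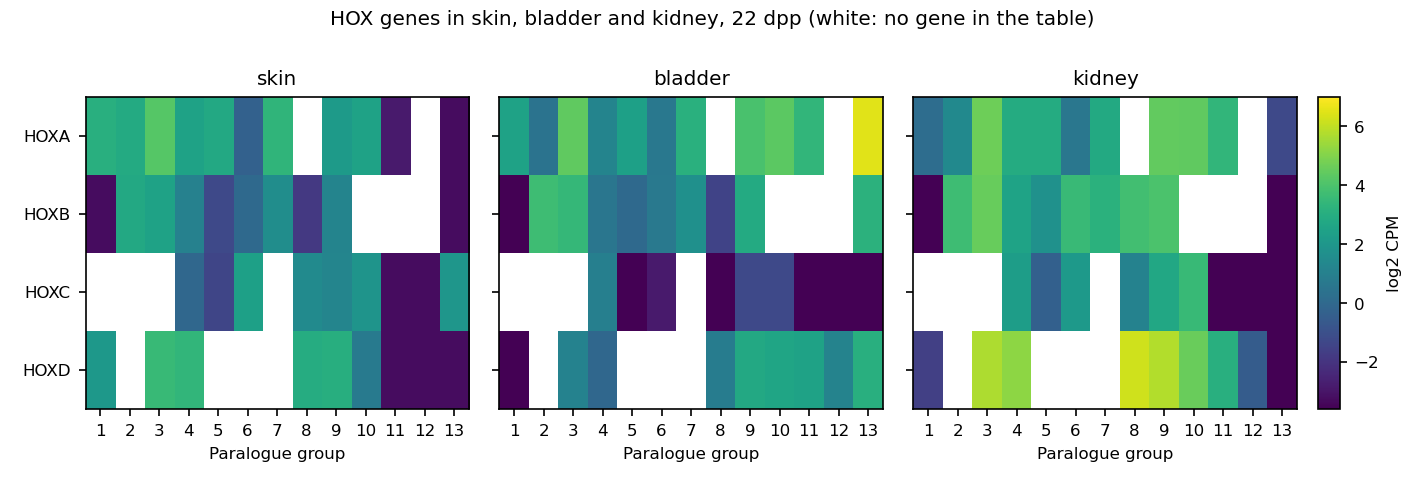
Levels of the 39 HOX genes of the table in skin, bladder and kidney (log2 CPM, 1 library each), by cluster (rows) and paralogue group (columns), white where the table has no gene. Bladder carries groups 11 to 13 of HOXA, HOXB and HOXD and little HOXC, whereas skin carries HOXC genes and, of groups 11 to 13, chiefly HOXC13.

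HOX genes, which mark position along the body axis, differed in kind. HOXA13, of the most posterior group, had 91.0 CPM in bladder and no read in skin, and the next tissue was small intestine at 6.92 CPM. HOXB13 had 9.22 CPM in bladder and no read in any of the other 12 tissues, HOXD13 8.54 CPM with 0.275 CPM in small intestine, and HOXD12 2.21 CPM with 0.701 CPM in kidney. Together the 9 genes of groups 11 to 13 came to 127 CPM in bladder, 4.02 CPM in skin and 19.9 CPM in kidney. Bladder was highest for 5 of them, beside 6.46% of all genes. The 30 genes of groups 1 to 10 came to 142 CPM in bladder, 149.5 CPM in skin and 467 CPM in kidney. Kidney was highest for 17 of them, beside 967 of all 17854 genes. Of the 9 HOXC genes, 6 were higher in skin, 2 (HOXC11 and HOXC12) had no read in either tissue, and HOXC4 was higher in bladder (28 reads in skin, 70 in bladder). HOXC6 had 5.34 CPM in skin and 5 reads in bladder, HOXC8 2.74 CPM and 2 reads, and HOXC10 3.75 and 0.42 CPM. HOXD1 had 4.09 CPM in skin and no read in bladder. The map of HOX genes by cluster and group shows this as a bladder row of HOXA and HOXD that extends to group 13 and a nearly empty HOXC row.

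Signals between epithelium and mesenchyme differed in part. In the list of 28 hedgehog, BMP, FGF and WNT genes, 7 were at least 4-fold higher in bladder, beside 7.00% of all genes. At least 4-fold higher in skin were 2, close to the 6.88% of all genes. The other 19 were less than 4-fold apart (over all genes 15377 of 17854 were), and the median difference was -0.04. The hedgehog receptor and target PTCH1 was at 48.8 CPM in skin and 33.1 CPM in bladder, and GLI1, another target, at 12.3 and 9.39 CPM, both less than 4-fold apart, whereas SHH was 10.4-fold (8.99 to 12.1) higher in bladder. FGFR2, the receptor of epithelial FGF signals, was highest in skin at 404 CPM, against 173 CPM in bladder. The BMP ligands were higher in bladder than in skin, BMP4 at 62.1 against 14.3 CPM, BMP5 at 29.8 against 0.555 CPM and BMP7 at 36.4 against 3.78 CPM. They did not single out bladder. Lung was above bladder for BMP4 (log2 CPM of 7.06 against 5.96) and BMP5 (5.28 against 4.90). Heart was close to bladder for BMP7 (5.05 against 5.19).

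The 47 genes that stood at least 4-fold above all other tissues in both skin and bladder had median levels of 65.3 CPM in skin and 19.5 CPM in bladder. Of the 47, 40 were higher in skin than in bladder and 7 were higher in bladder. At least 4-fold higher in skin than in bladder were 19, beside 6.88% of all genes. At least 4-fold higher in bladder was 1, beside 7.00% of all genes. CST6, cystatin M/E, a protease inhibitor of cornifying epithelia, had 219.9 CPM in skin, 57.1 CPM in bladder and no read in the other 11 tissues. LOC118857450 (chr7:21927894-21931883), an unnamed gene between STX1A and ABHD11, had 77.0 and 71.2 CPM and at most 0.067 CPM in liver. Its neighbours LOC118857449 and LOC118857448 were bladder genes, with 3571 and 7552 reads in bladder and 0 and 14 reads in skin. ZNF750, a zinc-finger factor of keratinocyte differentiation, had 370.4 and 29.8 CPM, the other 11 tissues staying under 1 CPM. SPTSSB, a subunit of the sphingolipid synthase, was level, at 34.8 and 37 CPM, and the counting interval of the fold, 1.06-fold (0.98 to 1.16), included 1. LOC118829156 on chromosome 8, between CARMIL3 and JPH4, was counted both here and among the 49 bladder genes, with 5349.5 CPM in bladder, 269.7 CPM in skin and 57.5 CPM in large intestine.

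Cell types other than the main ones were present to different degrees. Skeletal muscle genes were higher in skin for 18 of 19 members by at least 4-fold, beside 6.88% of all genes. Their median difference was 5.93 (3.49 with 1 CPM added to every value). Their summed level was 1408 CPM in skin, 69.7 CPM in bladder and 59232 CPM in muscle, TTN having the most reads in skin. MYOG, a myogenic factor, had 10.2 CPM in skin, no read in bladder and 170.4 CPM in muscle, and CKM, muscle creatine kinase, 55.1 CPM in skin and 3 reads in bladder. Of 14 melanocyte genes tested, 9 were at least 4-fold higher in skin than in bladder, beside 6.88% of all genes. At least 4-fold higher in bladder was 1, beside 7.00% of all genes. The median over all 15 members was 4.08 (1.22 with 1 CPM added). PMEL, TYRP1, DCT, MLANA and TYR were at 34.1, 16.6, 15.1, 6.66 and 6.14 CPM, second to eye in each case, where PMEL reached 1333 CPM. All but PMEL of these 5 had no read in bladder, and MC1R had 1 read in skin. EDNRB and KIT, receptors that other cell types also carry, were higher in bladder, at 151 against 21.5 CPM and 45.2 against 27.8 CPM. With them the list summed to 173 CPM in skin, 217 CPM in bladder and 2505 CPM in eye.

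Vessel and immune genes were measured in both tissues. Of 17 endothelial and pericyte genes, 14 were less than 4-fold apart (median 0.65), beside 15377 of 17854 over all genes, CDH5, an endothelial cadherin, being at 107 CPM in skin and 64.9 CPM in bladder. The lymphatic factor PROX1 was at 17.3 CPM in skin and 1.40 CPM in bladder, the lowest of the 13 tissues, while RGS5 of pericytes and smooth muscle was at 93.2 and 951 CPM. Among 16 immune genes 3 were at least 4-fold higher in skin and 1 in bladder, beside 6.88% and 7.00% of all genes (median 0.48). The list summed to 433 CPM in skin and 149 CPM in bladder, against 1020 CPM in spleen, 602 CPM in liver and 529 CPM in lung. C1QA, C1QB, C1QC, CSF1R, PTPRC and FCER1G were highest in spleen. Only CD163, CD207 and S100A8 were highest in skin, 3 of the 16, beside 7.60% of all genes. The macrophage receptor CD163 had 37.2 CPM in skin, with lung close (log2 CPM of 5.11 against 5.22). CD207, langerin of Langerhans cells, had 4.92 CPM in skin and 5 reads in bladder. Red cell precursor genes summed to 498 CPM in skin and 680.1 CPM in bladder, against 116906 CPM in spleen, with a median difference of -0.30 over 12 genes. Of 13 adipocyte genes, 3 were at least 4-fold higher in skin and 1 in bladder (median 1.47), the latter near the 7.00% of all genes, ADIPOQ having 3 reads in skin and none in bladder and UCP1 none in either.

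Genes of nerve, of the outer lining and of neighbouring organs were looked at last. The neuronal gene ELAVL4 had no read in skin and 8 in bladder. Of 19 genes of Schwann cells and nerve, 2 were at least 4-fold higher in skin and 3 in bladder, beside 6.88% and 7.00% of all genes, and the median difference of -0.06 equalled that of all genes. Of 9 mesothelial genes tested, 6 were at least 4-fold higher in bladder and none in skin, with UPK3B at 81.9 CPM and WT1 at 16.5 CPM, against 0.659 CPM and no read in skin. Of 9 genes of prostate and male urogenital epithelium, 5 were at least 4-fold higher in bladder and none in skin (median -4.39, or -1.53 with 1 CPM added). The list was highest in stomach, where it summed to 348 CPM, against 174 CPM in bladder and 43.3 CPM in skin. FOXA2, a forkhead factor of endodermal epithelium, had 59.3 CPM in bladder, no read in skin, 114 CPM in stomach and 97.2 CPM in lung. Of the intestinal list, GPA33 alone exceeded 10 CPM in bladder (28.5 CPM), and of the nephron list 2 of 12 were at least 4-fold higher in bladder and 2 in skin. These lists are small, and 6.88% and 7.00% of all genes were so called in skin and bladder. Their part in the results above was not tested.

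All 26 cell division genes were under 4-fold apart between skin and bladder, beside 15377 of 17854 over all genes, with a median difference of -0.11 and a range from -0.68 to 0.92, and their summed level was 1356 CPM in skin, 1273 CPM in bladder and 9461 CPM in spleen, the highest. MKI67, the proliferation antigen, was at 276 CPM in skin and 146 CPM in bladder, and PCNA, the replication clamp, at 56.1 and 54.0 CPM.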

How the data were processed

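RNA was sequenced from whole pieces of skin, bladder and 11 other tissues of one pouch young, as poly(A)-selected, strand-specific libraries. The authors trimmed reads with Trim Galore 0.6.7, mapped them with HISAT2 2.2.1, kept uniquely mapped reads and quantified genes in SeqMonk. The values the authors deposited are log2 counts per 1000000 reads of the library total (log2 CPM), not divided by transcript length, with no read written as 0.9 read. Whole read counts were recovered from the deposited values: every value under 200 reads in the 13 libraries came out whole within 0.02. Of 23816 genes, 17854 reached 1 CPM in at least 1 of the 13 libraries.

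Levels under 3 reads were raised to 3 reads before folds were formed, and genes at least 4-fold (2 on the log2 scale) apart were counted. With 1 library per tissue no test was made. Intervals are 95% exact intervals that cover counting error only. Genes named are members of 23 gene lists (511 genes, 442 of them in the table), the 10 genes with most reads in each tissue, and the genes with the largest fold over all other tissues among those with at least 10 CPM (15 for skin, 15 for bladder and 10 for both). The members and lists were chosen with earlier results of these data known. All 23435 gene names were found in RefSeq for mTriVul1.pri, and the 23389 names used once had the same start there, so coordinates are of that assembly. Multigene families such as keratins can lose reads that map to more than 1 copy, so their levels are uncertain. Other scalings, floors and folds were tried. For the spread between animals, the 2 livers that the study removed were left out. Some genes of the lists are counted in them but not reported here by name. Tables were made in Python 3.11.15 with scipy 1.17.1, pandas 2.3.3 and numpy 2.4.6, and plots with matplotlib 3.10.9.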

Additional observations from a re-analysis of the deposited data

How the results depend on the processing

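The counts of genes set apart depended on the fold asked for and on the tissues compared. At 8-fold, 26 genes stood above skin and all others in bladder, 26 stood above all others in both, and 794 and 663 genes were higher in skin than in bladder and the reverse. At 2-fold the counts were 492 for skin over all others, 149 for bladder, 93 for both, 2338 for skin over bladder and 2879 for bladder over skin. With 1 CPM added to every value, 736 genes were higher in skin than in bladder and 710 in bladder than in skin. Without small intestine, large intestine and stomach, 94 genes stood above skin and the remaining tissues in bladder, and 80 in both. Under the other alternatives each count that was made stayed within 1.5 times the one reported. The count for skin over all others ran from 212 to 393 there. Counts of skin against bladder alone were not made again where tissues were left out.

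Making the median of ratios equal moved skin against bladder by 0.14 on the log2 scale, so that the median of all genes went from -0.06 to 0.08. Each scaling shifts all genes by 1 constant, at most that size, so it does not test single genes. Of 115 list medians under 5 alternatives, 111 moved by less than 0.814, the median difference between libraries of the same organ from other animals, which the scalings could not exceed. The other 4 were those with 1 CPM added, where the medians became 2.09 for hair follicle, 1.22 for melanocyte, 3.49 for skeletal muscle and -1.53 for prostate genes. No paired analysis was possible because each tissue was 1 library and no test was made, and for the same reason no library could be left out within a tissue. A gene with no read is bounded only by the 3 reads set as floor, 0.104 CPM in skin and 0.0840 CPM in bladder.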

Other observations

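Some genes outside the gene lists also set the tissues apart, and they are named here after their values were seen. In skin, LGALS7, a galectin of stratified epithelia, had 2450.3 CPM against 1.18 CPM in bladder and 2.01 CPM in spleen at most elsewhere. SERPINB5, maspin, had 588 CPM in skin, 1.93 CPM in bladder and 2.38 CPM in eye. CXCL14, a chemokine of epithelia, had 1532 CPM in skin, 49.1 CPM in bladder and 57.1 CPM in muscle. The kallikrein KLK10 had 140.0 CPM in skin and 0.392 CPM in bladder. In bladder, ESR1, the estrogen receptor, had 97.5 CPM against 6.10 CPM in skin and 16.9 CPM in stomach. SFRP2, a secreted WNT antagonist, had 135 CPM in bladder, 8.81 CPM in skin and 17.7 CPM in lung, and OSR1, a zinc-finger factor of urogenital mesenchyme, 27.6 CPM, 1.73 CPM and 5.02 CPM in stomach.

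Tongue, another organ with a stratified epithelium, was available from 2 related animals, the adult mother and a juvenile sister. Animal, age and tissue cannot be told apart in that comparison, which was chosen after the data were seen. Of the 318 genes at least 4-fold higher in skin than in the other 12 tissues of the pouch young, 205 were also at least 4-fold lower in adult tongue than in skin and 167 in juvenile tongue, whereas 49 and 75 were higher in tongue than in skin. Over all 17854 genes, 12.0% and 14.5% were at least 4-fold lower in adult and juvenile tongue than in skin, and 15.7% and 18.9% than in bladder, while 33.5% and 32.4% were higher in tongue than in skin. Since the genes were chosen for being high in skin or bladder, a larger share of lower values or a smaller share of higher values among them is not a result about them. Of the 49 bladder genes, 47 and 46 were at least 4-fold lower in tongue than in bladder. Of the 47 genes shared by skin and bladder, 20 and 17 were at least 4-fold lower in adult and juvenile tongue than in skin, and 11 and 15 were higher than in skin.

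The unnamed keratin-interval genes separated in the same values. LOC118846615 had 30679.5 CPM in skin, 0.0799 CPM in adult tongue and 18.4 CPM in juvenile tongue. LOC118846355, which bladder shared with skin, had 4119 CPM in skin and 27449 and 47423 CPM in the tongues. KRT4, a keratin of mucosal epithelium, had 2.84 CPM in skin and 12288 and 13479.8 CPM in the tongues. LORICRIN had 1856 CPM in skin and 442 and 626 CPM, and DSG1 4894 CPM and 2152 and 3123 CPM. UPK2 and LOC118829156 had no read in either tongue.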
